A study of Arabidopsis thaliana with 10 samples.

Results

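The genes described here are the xyloglucan endotransglucosylase/hydrolases (XTH) and the expansins of Arabidopsis thaliana, 2 families of secreted proteins that act on the cell wall. They were taken by name: every gene of the deposited table called XTH, EXPA, EXPB, EXLA or EXLB with a number, apart from XTH22, and with at least 50 counts summed over the 10 libraries. This gave 43 of the 33602 genes in the table, namely 23 of 32 XTH, 14 of 20 alpha-expansins (EXPA), 2 of 5 beta-expansins (EXPB), 3 of 3 expansin-like A genes (EXLA) and the 1 expansin-like B gene (EXLB1). Of the 18 named genes left out, 14 had 0 counts in all 10 libraries. Among these were EXPA7 and EXPA18, which are known as expansins of root hairs. The highest summed count among those left out was 44 (EXPA21) and the lowest among those kept was 59 (XTH29).

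The libraries were made from polyA RNA of leaves, of the fifth true leaf at an age of 4 weeks, in 5 groups with 2 libraries each. The Col-0 groups other than wild type follow a line through its generations: plants grown at 30 °C after a first week at 22 °C (generation 1, here the 30 °C-grown plants), their progeny raised without heat stress (generation 2), and the progeny of those, also without heat stress (generation 3). A further group was unstressed plants of the mutant sgs3-12, for which the sources used here name neither the accession nor the lesion. The last group was wild-type Col-0 kept at 22 °C. All plants had 16 h of light and 8 h of dark. The labels do not say whether a library was made from 1 plant or a pool, nor whether different plants went into the 2 libraries of each group, so the p-values cover only the spread among these samples, and that spread may be technical.

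The primary wall of a growing leaf cell is a mesh of cellulose microfibrils tethered and spaced by xyloglucan, a glucan with xylose side chains. XTH enzymes cut a xyloglucan chain and either join the cut end to another xyloglucan chain or, in some members, to water, which shortens the chain. Expansins loosen the contacts between cellulose and its matrix at acidic pH without cutting either polymer. Alpha-expansins and beta-expansins are the classes with wall-loosening activity, while expansin-like proteins share the fold but have no established loosening activity. Both families are large, with members used in particular organs and with many that respond to growth hormones, touch or temperature.

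Total counts ranged from 17674090 to 23145159 per library, and 19768 genes, with all 43 members among them, had enough counts to test. SGS3, which stabilises precursors of trans-acting small RNAs, was at 9.40 and 8.02 CPM (counts per 1000000 counts, with TMM scaling) in sgs3-12 libraries, against 24.1 and 35.1 CPM in wild type, but it was as low in generation 2, at 9.48 and 7.87 CPM. The tissue label matched the marker genes. The 3 leaf mesophyll markers LHCB1.3, LHCB1.1 and RBCS1A summed to 22485 to 64962 FPKM (counts per kilobase of gene and per 1000000 counts), the root hair markers RHD6 and LRX1 and the meristem markers STM, CLV3 and WUS had 0 counts in every library, COBL9 of the root hair list had at most 3 counts and KNAT1 of the meristem list at most 5, and the 2 floral genes AP3 and PI summed to at most 0.918 FPKM. The 4 guard cell markers summed to 21.2 to 67.3 FPKM, the 6 xylem markers to 23.8 to 76.7 FPKM and the 2 markers of dividing cells to 1.60 to 8.71 FPKM. The first libraries of generations 2 and 3 differed from the others by gene length: log2 CPM dropped by 2.13 and 1.16 per 10-fold of gene length there, against −0.43 to 1.13 in the other libraries. Members are short, with a median length of 1202 bases. In bulk leaf RNA, fewer cells of a type and less RNA per cell cannot be told apart.

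Some members are near-copies of each other, so their single values are uncertain, since the sources used here do not say how reads shared between genes were counted. XTH24, XTH18 and XTH19 follow each other on chromosome 4 with gaps of 5215 and 1664 bases, and EXLA3 and EXLA1 lie 2265 bases apart on chromosome 3. The coding sequences of XTH18 and XTH19 were identical at 89.2% of aligned bases, those of XTH17 and XTH18 at 92.2%, and those of EXLA3 and EXLA1 at 86.6%. The longest stretches that the tandem partners share letter for letter were 68 and 57 bases. They are shown because a read that falls inside one of them could belong to either gene. The shared stretch is given once for each pair, 5′ to 3′ on the coding strand, from RefSeq's TAIR10.1 (XTH18 chr4:14826483-14826550 and XTH19 chr4:14829475-14829542, both minus strand; EXLA3 chr3:16892843-16892899 and EXLA1 chr3:16896255-16896311, both plus strand).
XTH18 and XTH19: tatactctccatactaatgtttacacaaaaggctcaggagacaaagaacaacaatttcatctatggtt
EXLA3 and EXLA1: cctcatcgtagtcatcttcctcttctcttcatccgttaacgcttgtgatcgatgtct
By contrast, XTH24 shared no stretch this long with another member. EXLA1 also overlaps a histone H2B gene by 22 bases and EXPA20 overlaps the gene AT4G38215 by 642 bases.

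The leaf used a few members at high level and most at low level. By mean FPKM over the 10 libraries the 10 leading genes were XTH6 (261.6 FPKM), EXPA8 (237 FPKM), XTH7 (233 FPKM), XTH4 (153 FPKM), XTH27 (115 FPKM), EXPA1 (108 FPKM), XTH24 (92.0 FPKM), XTH31 (80.8 FPKM), EXPA6 (57.0 FPKM) and EXPA11 (45.9 FPKM). XTH27 is known from the maturing of veins in rosette leaves, EXPA1 from guard cells, and XTH31 from xyloglucan hydrolysis. The gene lengths behind the FPKM values place EXPA1 too low in this order if its span is taken as its length: the implied length is 4049 bases, while the gene spans 1665 bases (chromosome 1, 26141836 to 26143500), and per kilobase of span EXPA1 would lead all members at 262.9 FPKM, against 201.6 FPKM for XTH6. The implied length exceeded the span for 5 of the 43 members, and the other 4 were EXLA3, EXPA10, XTH9 and XTH11.

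Summed over all members, levels were 1699 and 1460 FPKM in 30 °C-grown plants, 3139 and 1172 FPKM in generation 2, 2098 and 1955 FPKM in generation 3, 1518 and 1309 FPKM in sgs3-12, and 1718 and 990.6 FPKM in wild type. The groups overlapped, and the libraries of generation 2 were the farthest apart. The XTH genes made up 44.5% of this sum in wild-type library 2 and 75.7% in sgs3-12 library 2, the lowest and the highest share. Within the XTH sum, XTH6 took 25.8% to 31.7% in 7 libraries but 11.1% and 10.6% in 30 °C-grown plants and 11.2% in wild-type library 2. XTH24 took 20.7% and 16.6% of it in 30 °C-grown plants, against 3.19% and 6.69% in wild type. Within the expansin sum, EXPA8 led in 9 libraries with 16.5% to 51.8%. In library 2 of generation 2 it took 3.47% and EXPA16 led with 23.2%. All these sums and shares use the implied gene lengths. Per kilobase of span, the mean over the libraries would be 262.9 FPKM for EXPA1 and 154.8 FPKM for EXPA8. The lead of EXPA8 and the shares of the 2 families therefore depend on the length used.

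**Figure D1:**
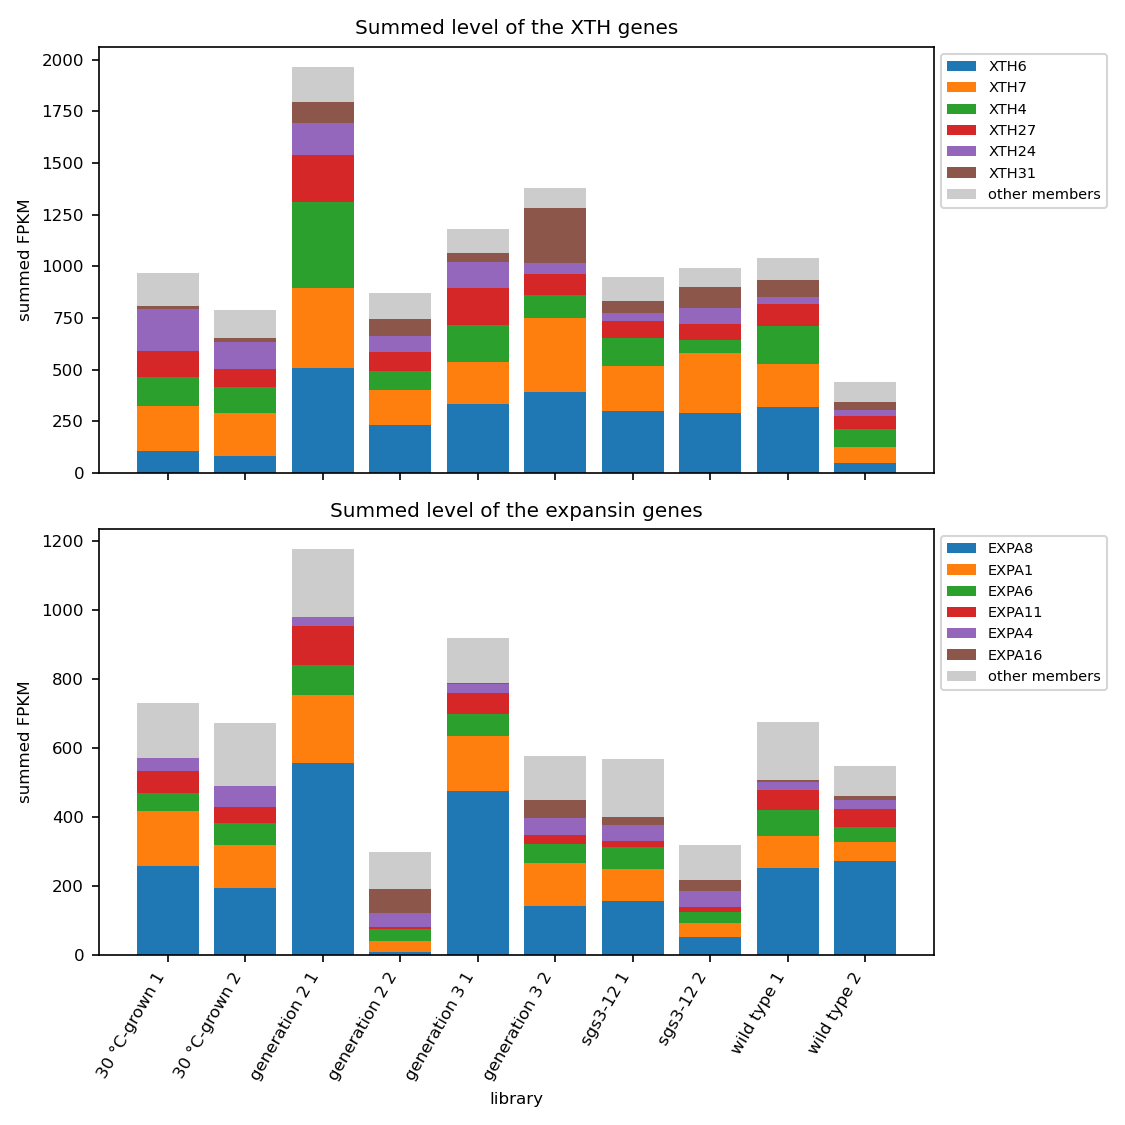
Summed FPKM of the 23 XTH genes (top) and the 20 expansin genes (bottom) in each of the 10 libraries, with 6 genes of each family in colour and the other members in grey. The FPKM use the implied gene lengths, which for EXPA1 is 4049 bases against a span of 1665 bases. XTH24 takes a larger share of the XTH sum in both 30 °C-grown libraries (20.7% and 16.6%) than in wild type (3.19% and 6.69%), and EXPA8 almost vanishes in library 2 of generation 2 (3.47% of the expansin sum).

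XTH6, the leading member by FPKM, was at 110 and 85.5 CPM in 30 °C-grown plants, 705 and 259 CPM in generation 2, 437 and 459 CPM in generation 3, 299 and 289 CPM in sgs3-12, and 363 and 52.6 CPM in wild type. Only generation 3 lay above both wild-type libraries, which were 6.90-fold apart, while both 30 °C-grown libraries lay below every progeny and sgs3-12 library. XTH7 was at 225 and 215 CPM in 30 °C-grown plants, 551 and 192 CPM in generation 2, 271 and 422 CPM in generation 3, 218 and 297 CPM in sgs3-12, and 245 and 83.8 CPM in wild type, again with generation 3 alone clear of wild type. EXPA8 was at 261 and 198 CPM in 30 °C-grown plants, 768 and 11.4 CPM in generation 2, 617 and 164 CPM in generation 3, 153 and 52.1 CPM in sgs3-12, and 287 and 289 CPM in wild type. For EXPA8 the 30 °C-grown and sgs3-12 libraries lay below wild type, while both progeny generations had 1 library above and 1 below it.

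XTH4, known from secondary growth of stems, was at 156 and 142 CPM in 30 °C-grown plants, 632 and 109 CPM in generation 2, 252 and 145 CPM in generation 3, 148 and 68.3 CPM in sgs3-12, and 226 and 98.04 CPM in wild type. XTH27 was at 163 and 105 CPM in 30 °C-grown plants, 389.6 and 131 CPM in generation 2, 290.5 and 147 CPM in generation 3, 101 and 99.2 CPM in sgs3-12, and 151 and 87.5 CPM in wild type. EXPA1 was at 600.1 and 460.4 CPM in 30 °C-grown plants, 1003 and 124 CPM in generation 2, 756 and 532 CPM in generation 3, 333 and 152 CPM in sgs3-12, and 386 and 209 CPM in wild type. Of these 3 genes, EXPA1 alone had groups clear of wild type, with both 30 °C-grown and both generation 3 libraries above it. EXPA6 was at 66.9 and 79.2 CPM in 30 °C-grown plants, 149 and 49.3 CPM in generation 2, 105 and 78.3 CPM in generation 3, 81.2 and 37.1 CPM in sgs3-12, and 107 and 56.5 CPM in wild type. EXPA11 was at 65.1 and 50.6 CPM in 30 °C-grown plants, 159 and 6.51 CPM in generation 2, 80.9 and 30.5 CPM in generation 3, 18.4 and 16.6 CPM in sgs3-12, and 65.8 and 58.0 CPM in wild type. EXPA6 overlapped wild type in every group, and EXPA11 lay below it in sgs3-12.

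**Figure D2:**
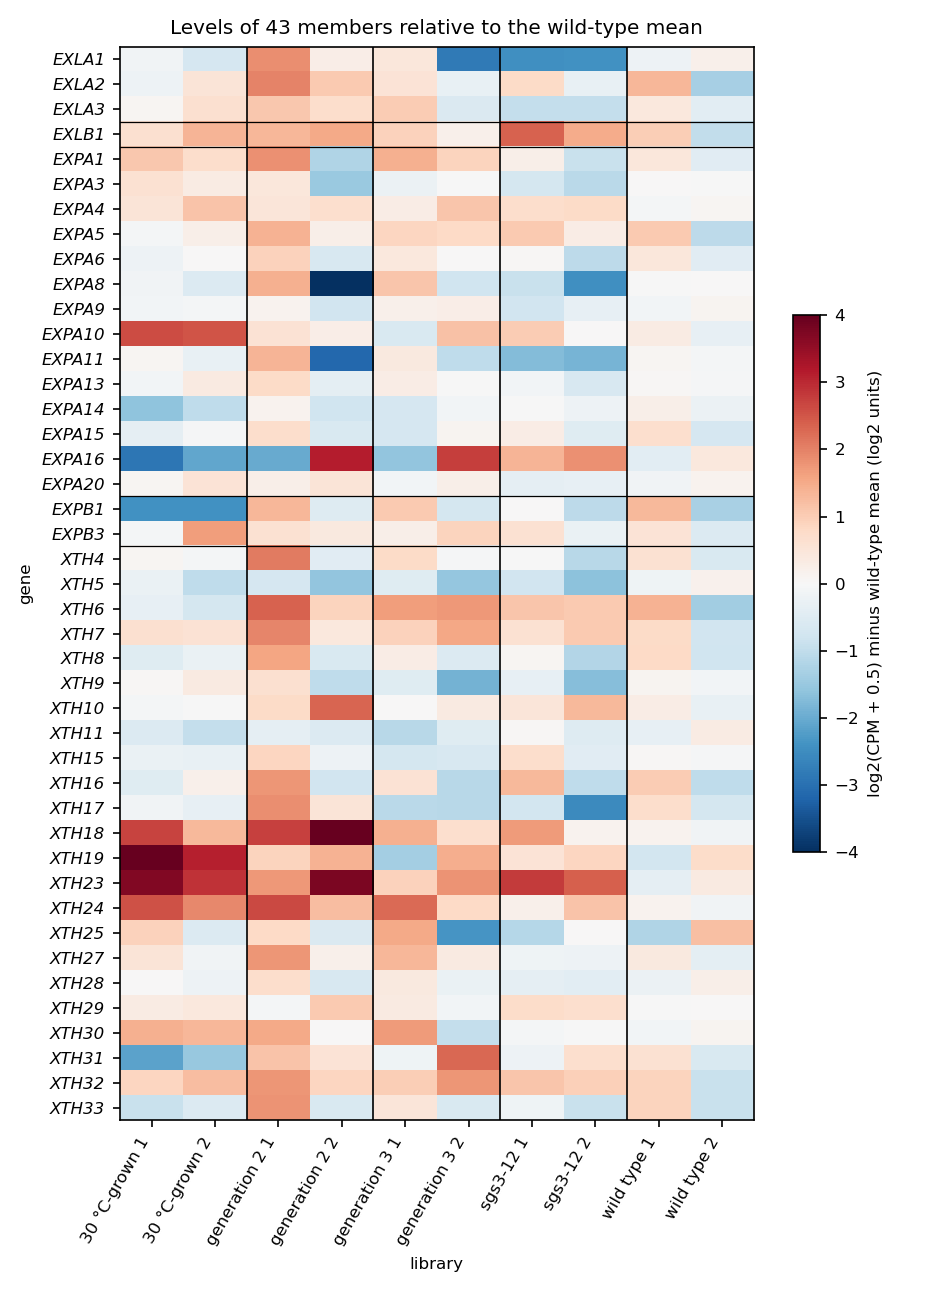
Level of each of the 43 members (rows, grouped by subfamily) in each of the 10 libraries (columns), as log2(CPM + 0.5) minus the mean of the 2 wild-type libraries. The colour runs from blue (lower) to red (higher) and is capped at 4 log2 units. XTH18, XTH23, XTH24 and EXPA4 lie above the wild-type mean in all 8 libraries outside wild type, EXPA10 and XTH19 are darkest in the 30 °C-grown libraries, and EXPA8 and EXPA11 are dark blue in library 2 of generation 2.

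The comparison of 30 °C-grown plants with wild type addresses what differs in leaves grown at the higher temperature. XTH23, XTH24, XTH18, XTH19 and EXPA10 were at higher levels in 30 °C-grown plants, and EXPB1, EXPA14 and XTH31 at lower levels. XTH23 (AT4G25810, chromosome 4, 13128643 to 13129884) was at 10.6 and 5.92 CPM in 30 °C-grown plants, against 0.177 and 0.603 CPM in wild type. The heat-grown libraries exceeded both of wild type by a wide margin. The fitted log2 fold change was 4.39 ± 0.94 (edgeR adjusted p = 0.412, DESeq2 adjusted p = 0.000659). Here and below, the error is a standard error (SE) derived from the F statistic of the edgeR fit of all 10 libraries. Each group has 2 libraries. This error is not the spread of the gene within the 2 groups compared. EXPA10 (AT1G26770, chromosome 1, 9259605 to 9261313), an alpha-expansin known for its effect on leaf size, was at 73.1 and 67.9 CPM in 30 °C-grown plants, against 14.5 and 9.22 CPM in wild type. The groups did not overlap, and the log2 fold change was 2.57 ± 0.63 (edgeR adjusted p = 0.434, DESeq2 adjusted p = 0.0118). XTH24 (AT4G30270, chromosome 4, 14819192 to 14820592), first described as the meristem gene MERI5, was at 222 and 144 CPM in 30 °C-grown plants, against 41.1 and 34.0 CPM in wild type. Its groups were also apart, at 2.29 ± 0.67 on the log2 scale (edgeR adjusted p = 0.495, DESeq2 adjusted p = 0.0442).

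The neighbours of XTH24 followed at lower levels. XTH19 (AT4G30290, chromosome 4, 14828712 to 14830016) was at 29.1 and 10.6 CPM in 30 °C-grown plants, against 0.265 and 1.62 CPM in wild type (log2 fold change 4.39 ± 1.48, edgeR adjusted p = 0.525, DESeq2 adjusted p = 0.0545). XTH18 (AT4G30280, chromosome 4, 14825808 to 14827047) was at 4.81 and 1.48 CPM in 30 °C-grown plants, against 0.398 and 0.232 CPM in wild type (3.29 ± 1.201, edgeR adjusted p = 0.569, DESeq2 adjusted p = 0.119). Both are known mainly from roots, and in wild-type leaves they were close to the limit of detection, with 9 and 5 counts of XTH18. Given their shared stretches, the split between XTH18 and XTH19 is uncertain, whereas each had both heat-grown libraries above both wild-type libraries.

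At lower levels was EXPB1 (AT2G20750, chromosome 2, 8941119 to 8942689), at 2.28 and 2.28 CPM in 30 °C-grown plants, against 35.9 and 5.61 CPM in wild type (−3.18 ± 1.05, edgeR adjusted p = 0.523, DESeq2 adjusted p = 0.0532). The wild-type libraries were 6.39-fold apart, and both heat-grown libraries lay below the lower of them. XTH31 (AT3G44990, chromosome 3, 16446975 to 16448764) was at 16.1 and 24.8 CPM in 30 °C-grown plants, against 109 and 47.6 CPM in wild type (−1.94 ± 0.79, edgeR adjusted p = 0.611). EXPA14 was at 0.243 and 0.634 CPM in 30 °C-grown plants, against 2.21 and 1.44 CPM in wild type (−2.03 ± 0.72, edgeR adjusted p = 0.552).

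Over all 43 members, 19 had a positive fold change and the median was −0.10 on the log2 scale, beside −0.02 for all genes tested. Without wild-type library 1 the member median turned to 0.61. An unadjusted edgeR p under 0.05 was reached by 5 members in the higher direction, where 4.93% of all genes did, and by 3 in the lower direction, where 2.98% did. For 10 members (26.3% of all genes) both heat-grown libraries exceeded both of wild type, and they lay below for 8 (25.2% of all genes). edgeR called 0 members and 0 genes at an adjusted p under 0.05, with 1564 genes (7.91%) at an unadjusted p under 0.05, while DESeq2 called 3 members, XTH23, EXPA10 and XTH24, among 1.36% of its genes. The leaf mesophyll markers summed to 34451 and 33369 FPKM in 30 °C-grown plants, against 51731 and 48863 FPKM in wild type. Of the 3 markers only LHCB1.3 lay below both wild-type libraries, at 20127 and 17797 FPKM against 28904 and 39966 FPKM. LHCB1.1 and RBCS1A overlapped wild type. The part of these markers in the results was not tested. Other members clear of wild type were EXPA1, EXPA3, EXPA4, XTH29 and XTH30 above it and EXPA8, EXPA16, XTH5, XTH11 and XTH15 below it.

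**Figure D3:**
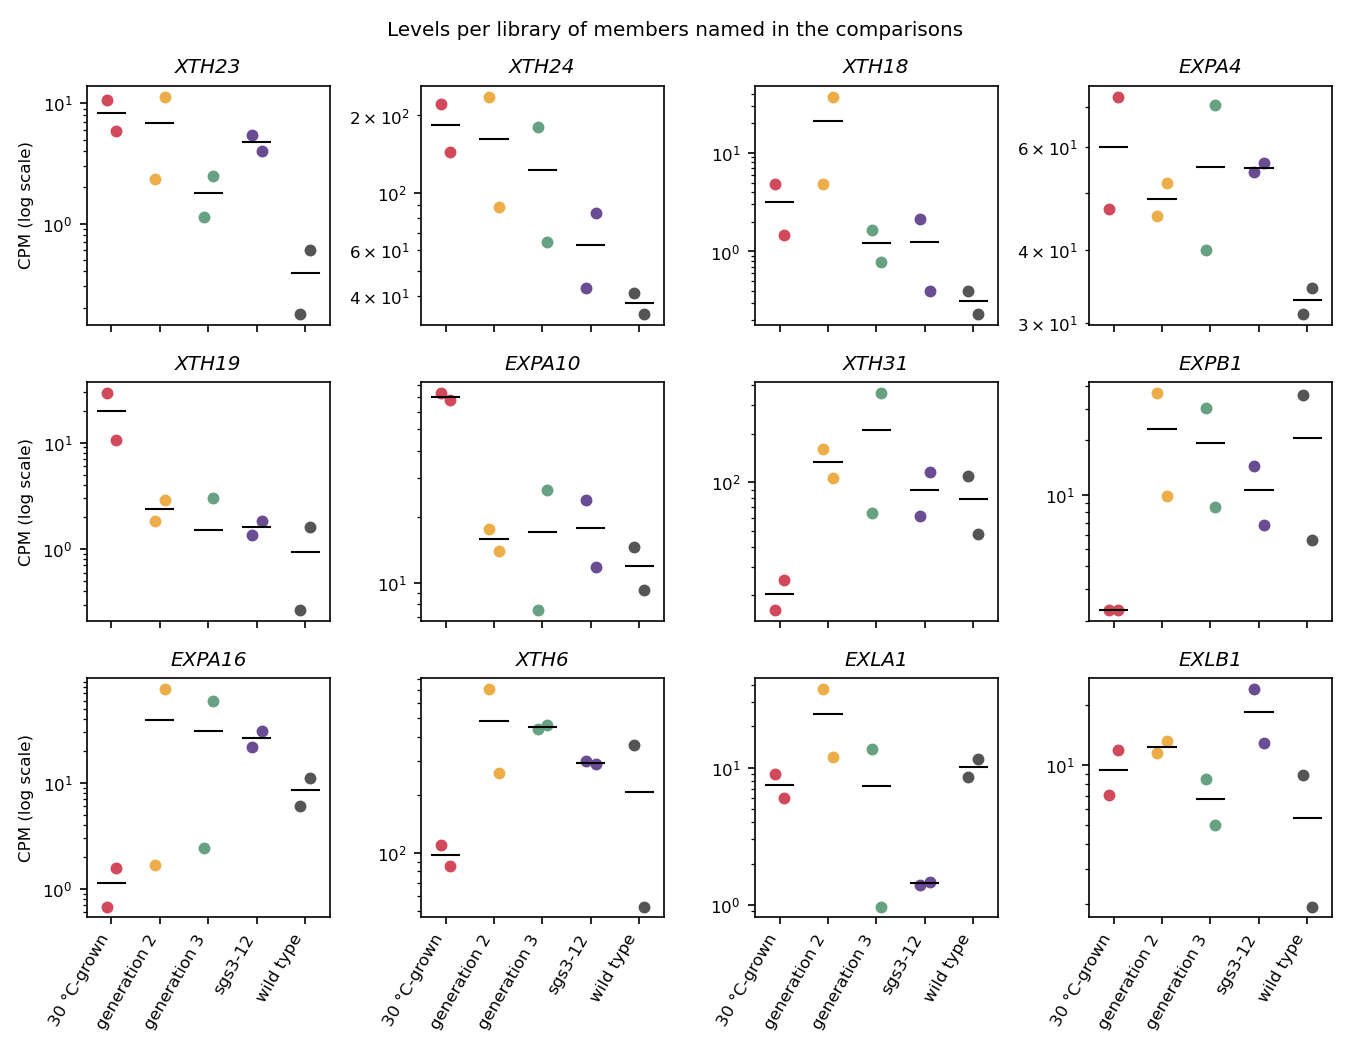
CPM (log axis) of 12 members in the 2 libraries of each group, as points, with the group mean as a bar. The axis range differs between panels. XTH19 in library 1 of generation 3 was at 0 CPM and has no point on the log axis. The 30 °C-grown plants stand apart from the other groups for EXPA10 (73.1 and 67.9 CPM), EXPB1 (2.28 and 2.28 CPM) and XTH31 (16.1 and 24.8 CPM), and both sgs3-12 libraries lie below both of wild type for EXLA1 (1.40 and 1.47 CPM, against 8.58 and 11.5 CPM).

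The comparison of generation 2 with wild type addresses what differed in unstressed progeny of heat-grown plants. XTH18, XTH23, XTH24 and XTH10 were at higher levels in generation 2, and 0 members passed the same limit in the lower direction. XTH18 was at 4.88 and 37.1 CPM in generation 2, against 0.398 and 0.232 CPM in wild type. The libraries of generation 2 differed 7.60-fold, but both were above wild type, and the log2 fold change was 6.03 ± 1.31 (SE, n = 2 per group, edgeR adjusted p = 0.357, DESeq2 adjusted p = 5.37e-05). XTH23 was at 2.35 and 11.3 CPM in generation 2, against 0.177 and 0.603 CPM in wild type (4.12 ± 0.93, edgeR adjusted p = 0.357, DESeq2 adjusted p = 0.00155). XTH24 was at 236 and 88.2 CPM in generation 2, against 41.1 and 34.0 CPM in wild type (2.11 ± 0.67, edgeR adjusted p = 0.357, DESeq2 adjusted p = 0.0528). XTH10 (AT2G14620, chromosome 2, 6244781 to 6246233) was at 2.58 and 8.46 CPM in generation 2, against 1.68 and 0.973 CPM in wild type (2.05 ± 0.67, edgeR adjusted p = 0.363, DESeq2 adjusted p = 0.108). In all 4 genes the groups did not overlap, but XTH24 was higher in library 1 of generation 2 and the other 3 in library 2.

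Of the 43 members, 37 had a positive fold change, and the median was 0.70 on the log2 scale, beside 0.11 for all genes tested. The XTH median was 1.13 and the EXPA median 0.41. For 10 members (16.8% of all genes) both generation 2 libraries exceeded both of wild type, and they lay below for 2 (17.2% of all genes), XTH5 and XTH11. An unadjusted edgeR p under 0.05 was reached by the 4 members named, where 7.16% of all genes reached it in the higher direction and 4.48% in the lower. edgeR called 0 members and 0 genes at an adjusted p under 0.05, with 2302 genes (11.6%) at an unadjusted p under 0.05. DESeq2 called 2 members, XTH18 and XTH23, among 3.05% of its genes.

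This median rested on library 1 of generation 2. Without it the member median was 0.005. The log2 fold changes were then 4.845 for XTH23, 6.846 for XTH18, 2.66 for XTH10 and −3.25 for EXPA11. EXPA11 thereby turned direction, since it was at 0.42 ± 1.07 with both libraries of generation 2. In that fit the 1 remaining library of generation 2 is assumed to vary like those of the other groups. Without wild-type library 1 the median was 1.43.

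The comparison of generation 3 with wild type asks the same of plants a further generation from the heat. XTH24 and XTH23 were again at higher levels. XTH24 was at 181 and 64.7 CPM in generation 3, against 41.1 and 34.0 CPM in wild type (1.71 ± 0.66, SE, n = 2 per group, edgeR adjusted p = 0.558, DESeq2 adjusted p = 0.214). XTH23 was at 1.13 and 2.48 CPM in generation 3, against 0.177 and 0.603 CPM in wild type (2.21 ± 0.90, edgeR adjusted p = 0.561, DESeq2 adjusted p = 0.266). Both generation 3 libraries exceeded both wild-type libraries for each gene, with the nearest pair of XTH23 libraries at 1.13 and 0.603 CPM.

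In generation 3, 28 of 43 members had a positive fold change, and the median was 0.24 on the log2 scale, beside 0.04 for all genes tested. For 9 members (21.1% of all genes) both libraries exceeded both of wild type, and they lay below for 6 (22.2% of all genes). The 2 members named reached an unadjusted edgeR p under 0.05 in the higher direction, where 4.36% of all genes did, and 0 did in the lower direction, where 4.22% did. edgeR called 0 members and 0 genes at an adjusted p under 0.05, with 1696 genes (8.58%) under 0.05 before adjustment, and DESeq2 called 0 members while it called 1.01% of its genes. The median was −0.06 without library 1 of generation 3 and 0.78 without wild-type library 1.

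The comparison of sgs3-12 with wild type asks what differs in unstressed plants of the mutant. XTH23 and EXLB1 were at higher levels in sgs3-12, and the expansin-like genes EXLA3 and EXLA1 at lower levels. XTH23 was at 5.44 and 4.01 CPM in sgs3-12, against 0.177 and 0.603 CPM in wild type, with no overlap (3.59 ± 0.92, SE, n = 2 per group, edgeR adjusted p = 0.339, DESeq2 adjusted p = 0.00622). EXLB1 (AT4G17030, chromosome 4, 9581586 to 9583290) was at 24.0 and 12.9 CPM in sgs3-12, against 8.89 and 1.95 CPM in wild type (1.77 ± 0.70, edgeR adjusted p = 0.468, DESeq2 adjusted p = 0.208). Its lower sgs3-12 library was above the higher wild-type library, although the wild-type libraries were 4.56-fold apart.

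EXLA1 (AT3G45970, chromosome 3, 16896166 to 16897308) was at 1.40 and 1.47 CPM in sgs3-12, against 8.58 and 11.5 CPM in wild type (−2.80 ± 1.05, edgeR adjusted p = 0.452, DESeq2 adjusted p = 0.0890). Its neighbour EXLA3 (AT3G45960, chromosome 3, 16892756 to 16893900) had 0 counts in both sgs3-12 libraries, against 18 and 5 counts in wild type. Taking 3 counts in the group as the floor, it was at least 8.23-fold lower in sgs3-12 (edgeR adjusted p = 0.377, DESeq2 adjusted p = 0.0469). Reads in the stretch that EXLA1 and EXLA3 share could be counted for either, and both genes were below wild type in both sgs3-12 libraries. The third member of the subfamily, EXLA2 (AT4G38400), was at 4.04 and 1.65 CPM in sgs3-12, against 6.15 and 0.556 CPM in wild type, with the wild-type libraries on either side (−0.24 ± 0.97, edgeR adjusted p = 0.970).

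Of the 43 members, 18 had a positive fold change in sgs3-12, and the median was −0.24 on the log2 scale, beside 0.01 for all genes tested. The medians of the 2 families differed in sign, with a median of 0.18 over the 23 XTH genes and −0.34 over the 20 expansins, of which 8 lay below both wild-type libraries and 3 above. In all, 9 members lay above both wild-type libraries (27% of all genes) and 12 below (24.6% of all genes). An unadjusted edgeR p under 0.05 was reached by the 2 members named in the higher direction, where 4.98% of all genes did, and by 2 in the lower direction, where 4.93% did. edgeR called 0 members and 0 genes at an adjusted p under 0.05, with 1959 genes (9.91%) under 0.05 before adjustment, and DESeq2 called XTH23 and EXLA3, among 3.05% of its genes. The leaf mesophyll markers summed to 30581 and 22485 FPKM in sgs3-12, against 51731 and 48863 FPKM in wild type. Of the 3 markers only LHCB1.3 lay below both wild-type libraries, at 14961 and 9442 FPKM against 28904 and 39966 FPKM. LHCB1.1 and RBCS1A overlapped wild type. The part of these markers in the results was not tested. Without wild-type library 1 the member median was 0.39. Without library 1 of generations 2 and 3, log2 fold changes were 3.60 for XTH23, −2.795 for EXLA1 and −1.81 for EXPA11.

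**Figure D4:**
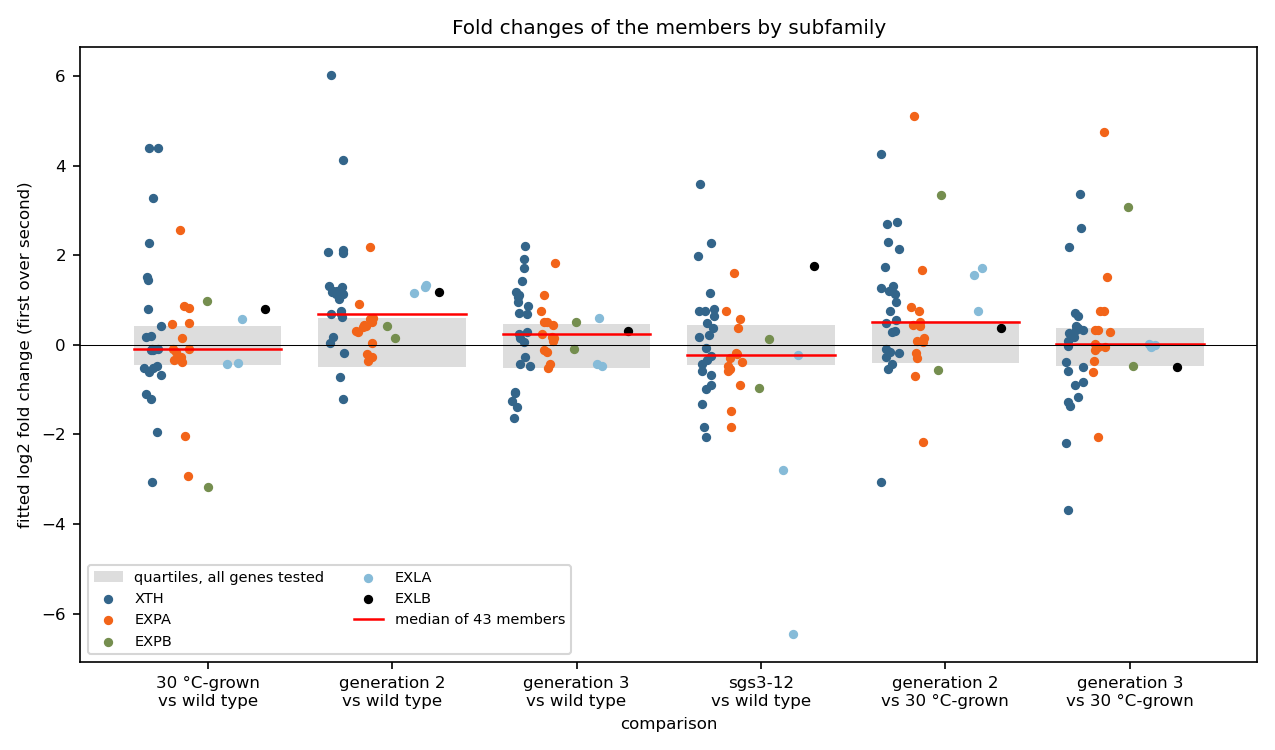
Fitted log2 fold change (y axis) of each of the 43 members in the 6 comparisons (x axis), with 1 point per gene coloured by subfamily, the member median as a red line and the quartiles of all 19768 genes tested as a grey box. The member median lies above the grey box in generation 2 against wild type (0.70), at its upper edge in generation 2 against 30 °C-grown plants (0.52), and well inside it in the other 4 comparisons. The lowest point is EXLA3 in sgs3-12, which had 0 counts there, so its position is not a measured size.

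The progeny were also set against the 30 °C-grown plants. XTH31, EXPB1, EXPA16 and XTH6 were at higher levels in both progeny generations and EXPA10 at lower levels. These comparisons share the same 2 heat-grown libraries with each other and with that of heat-grown plants against wild type, so they are not independent. XTH31 was at 159 and 106 CPM in generation 2, against 16.1 and 24.8 CPM in 30 °C-grown plants (2.70 ± 0.81, edgeR adjusted p = 0.476, DESeq2 adjusted p = 0.0427). In generation 3 it was at 64.6 and 356 CPM (3.36 ± 0.84 against 30 °C-grown plants, edgeR adjusted p = 0.580, DESeq2 adjusted p = 0.00493). EXPB1 was at 36.6 and 9.82 CPM in generation 2, against 2.28 and 2.28 CPM in 30 °C-grown plants (3.34 ± 1.05, edgeR adjusted p = 0.476, DESeq2 adjusted p = 0.0379). In generation 3 it was at 30.2 and 8.56 CPM (3.08 ± 1.04, edgeR adjusted p = 0.622, DESeq2 adjusted p = 0.0821). For both genes the progeny libraries were clear of the heat-grown ones and overlapped wild type.

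EXPA16 (AT3G55500, chromosome 3, 20574831 to 20576182) was at 1.68 and 76.5 CPM in generation 2 and at 2.45 and 59.0 CPM in generation 3, against 0.680 and 1.56 CPM in 30 °C-grown plants. The log2 fold change was 5.11 ± 1.84 in generation 2 (edgeR adjusted p = 0.478, DESeq2 adjusted p = 0.0193) and 4.76 ± 1.81 in generation 3 (edgeR adjusted p = 0.686, DESeq2 adjusted p = 0.0488). Library 1 of each progeny generation was close to the heat-grown level, and library 2 of each was far above it. EXPA16 was at 22.1 and 30.7 CPM in sgs3-12, and at 6.06 and 11.2 CPM in wild type. XTH6 was at 705 and 259 CPM in generation 2 and at 437 and 459 CPM in generation 3, against 110 and 85.5 CPM in 30 °C-grown plants (2.30 ± 0.83 and 2.20 ± 0.83, edgeR adjusted p = 0.478 and 0.678). XTH10 was at 2.58 and 8.46 CPM in generation 2, against 1.22 and 1.27 CPM in 30 °C-grown plants (2.15 ± 0.68, edgeR adjusted p = 0.476).

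EXPA10 was lower in both progeny generations than in the heat, at 17.6 and 13.95 CPM in generation 2 and 7.495 and 26.6 CPM in generation 3, against 73.1 and 67.9 CPM in 30 °C-grown plants. The log2 fold changes were −2.16 ± 0.62 (edgeR adjusted p = 0.476, DESeq2 adjusted p = 0.0516) and −2.05 ± 0.61 (edgeR adjusted p = 0.598, DESeq2 adjusted p = 0.108). XTH23 was at 1.13 and 2.48 CPM in generation 3, against 10.6 and 5.92 CPM in 30 °C-grown plants (−2.19 ± 0.84, edgeR adjusted p = 0.686). XTH19 was at 0 and 3.01 CPM in generation 3, against 29.1 and 10.6 CPM in 30 °C-grown plants (−3.68 ± 1.43, edgeR adjusted p = 0.690). In generation 2 XTH23 lay on both sides of the heat-grown level, at 2.35 and 11.3 CPM.

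In generation 2 against 30 °C-grown plants, 14 members lay above both heat-grown libraries (16.7% of all genes) and 2 below (18.7% of all genes). An unadjusted edgeR p under 0.05 was reached by 7 members in the higher direction (5.3% of all genes) and 1 in the lower (4.05% of all genes), which adds EXPA14 and XTH18 to those described. The member median was 0.52, beside 0.08 for all genes tested, and −0.21 without library 1 of generation 2. In generation 3 against 30 °C-grown plants, 9 members lay above (22.5% of all genes) and 7 below (23.5% of all genes), with a median of 0.01 beside −0.01 for all genes. There, 4 members reached an unadjusted edgeR p under 0.05 in the higher direction (3.32% of all genes) and 3 in the lower (3.56% of all genes). edgeR called 0 members and 0 genes at an adjusted p under 0.05 in either comparison, with 1849 (9.35%) and 1360 (6.88%) genes at an unadjusted p under 0.05. DESeq2 called EXPA16, EXPB1 and XTH31 in generation 2, among 1.58% of its genes, and EXPA16 and XTH31 in generation 3, among 1.03%. Without library 1 of generation 2, edgeR called EXPA3 (adjusted p = 0.0327) and EXPA11 (adjusted p = 0.0489), both lower in generation 2 than in the heat. The log2 fold change of EXPA11 turned, at 0.52 with both libraries and −3.15 without library 1.

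Across the 4 groups set against wild type, XTH18, XTH23, XTH24 and EXPA4 had both libraries above both wild-type libraries in every group, as did 950 (4.81%) of all genes tested, and XTH5 was below in every group, as were 822 (4.16%). These comparisons share the same 2 wild-type libraries, so they are not independent. EXPA4 (AT2G39700, chromosome 2, 16543832 to 16545584) was at 46.9 and 73.0 CPM in 30 °C-grown plants, 45.7 and 52.0 CPM in generation 2, 40.1 and 70.8 CPM in generation 3, 54.3 and 56.2 CPM in sgs3-12, and 31.1 and 34.5 CPM in wild type. Its fold changes were the most even of the 4 genes, from 0.57 ± 0.38 in generation 2 to 0.87 ± 0.39 in 30 °C-grown plants on the log2 scale, with edgeR adjusted p from 0.571 to 0.634. XTH24 was at 42.7 and 83.8 CPM in sgs3-12, and XTH18 was at 2.12 and 0.401 CPM there, where the lower libraries were just above the 41.1 and 0.398 CPM of wild-type library 1. XTH18 had 9 counts in sgs3-12 library 2 and 9 in wild-type library 1, so its side there rests on the library scaling. In generation 3 XTH18 was at 1.66 and 0.778 CPM. XTH5 (AT5G13870) was at 4.52 and 2.49 CPM in 30 °C-grown plants, 3.31 and 1.51 CPM in generation 2, 3.85 and 1.56 CPM in generation 3, 3.04 and 1.42 CPM in sgs3-12, and 4.91 and 6.26 CPM in wild type.

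The 300 bases upstream of XTH23, XTH18 and EXPA4 are shown as examples from the genes that lay above both wild-type libraries in every group. They were read from RefSeq's TAIR10.1, 5′ to 3′ on the gene's strand and ending next to that annotation's gene start, which lies upstream of the start in the deposited table where the models differ. Capitals mark a match to 1 of 4 motifs searched on both strands: the heat shock element (3 units that alternate between GAA and TTC, with 2 free bases between units), the G-box (CACGTG), the brassinosteroid response element (CGTGTG or CGTGCG) and the auxin response element (TGTCTC).
XTH23, chr4:13128094-13128393, plus strand: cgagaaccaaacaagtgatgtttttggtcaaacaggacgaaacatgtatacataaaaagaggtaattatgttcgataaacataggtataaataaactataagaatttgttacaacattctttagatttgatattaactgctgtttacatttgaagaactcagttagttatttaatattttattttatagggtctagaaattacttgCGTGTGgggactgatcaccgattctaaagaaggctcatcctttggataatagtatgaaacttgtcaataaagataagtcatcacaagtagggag
XTH18, chr4:14827212-14827511, minus strand: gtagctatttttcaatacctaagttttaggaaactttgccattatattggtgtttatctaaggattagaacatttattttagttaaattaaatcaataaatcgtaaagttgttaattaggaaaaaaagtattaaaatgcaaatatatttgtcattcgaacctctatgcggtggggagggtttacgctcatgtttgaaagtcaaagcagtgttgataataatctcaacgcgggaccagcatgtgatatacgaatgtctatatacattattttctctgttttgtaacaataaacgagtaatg
EXPA4, chr2:16545747-16546046, minus strand: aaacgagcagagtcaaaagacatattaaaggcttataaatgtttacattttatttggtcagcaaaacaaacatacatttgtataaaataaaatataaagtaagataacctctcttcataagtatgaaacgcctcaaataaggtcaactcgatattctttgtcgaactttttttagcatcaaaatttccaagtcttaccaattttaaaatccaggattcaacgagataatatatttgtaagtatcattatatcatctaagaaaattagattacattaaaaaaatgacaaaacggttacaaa
XTH23 held a brassinosteroid response element, while XTH18 and EXPA4 held none of the 4 motifs in this window. Over all 43 members, 7 windows held a brassinosteroid response element (7.64% of 27443 windows of all genes), 5 an auxin response element (13% of all windows), 0 a G-box (7.09% of all windows) and 0 a heat shock element (0.485% of all windows). A match is a description of the letters and not a binding site.

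The remaining members of the small subfamilies had wide groups. EXPB3 (AT4G28250) was at 9.67 and 33.7 CPM in 30 °C-grown plants, 15.9 and 13.6 CPM in generation 2, 12.1 and 19.3 CPM in generation 3, 15.8 and 8.42 CPM in sgs3-12, and 15.03 and 6.91 CPM in wild type. It overlapped wild type in every group, and so did EXLA2, which reached 9.98 and 5.005 CPM in generation 2 and was at 1.80 and 3.25 CPM in 30 °C-grown plants. EXLA1 was at 37.2 and 11.9 CPM in generation 2, 13.7 and 0.973 CPM in generation 3, and 8.99 and 6.004 CPM in 30 °C-grown plants, so only its generation 2 libraries were above the 8.58 and 11.5 CPM of wild type (1.29 ± 0.98, edgeR adjusted p = 0.607).

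The members varied between the libraries of a group, and mostly more than other genes did. With 0.5 added to each count, over 4-fold differences within a pair were found for 1 of 43 members in 30 °C-grown plants (2.33%, against 2.42% of all genes tested), namely XTH33 with 0 and 3 counts, 11 in generation 2 (25.6% against 21.5%), 9 in generation 3 (20.9% against 7.95%), 4 in sgs3-12 (9.3% against 2.61%) and 9 in wild type (20.9% against 7.63%). The median absolute log2 ratio within a pair was higher over the members than over all genes in each group, at 0.40 against 0.28 in 30 °C-grown plants and 0.89 against 0.48 in wild type, and it was largest in generation 2, at 1.52 against 1.02. Library 1 was the higher one for 34 members in generation 2, 30 in sgs3-12, 25 in generation 3, 22 in 30 °C-grown plants and 29 in wild type, beside 46.6% to 51% of all genes. EXPA8, at 768 and 11.4 CPM, and EXPA16, at 1.68 and 76.5 CPM, moved in opposite directions between the libraries of generation 2. The same was seen to a lesser degree in generation 3, with EXPA8 at 617 and 164 CPM and EXPA16 at 2.45 and 59.0 CPM. XTH6, at 363 and 52.6 CPM, and EXPB1, at 35.9 and 5.61 CPM, differed 6.90-fold and 6.39-fold within wild type, so comparisons of these genes with wild type rest on widely spaced controls.

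**Figure D5:**
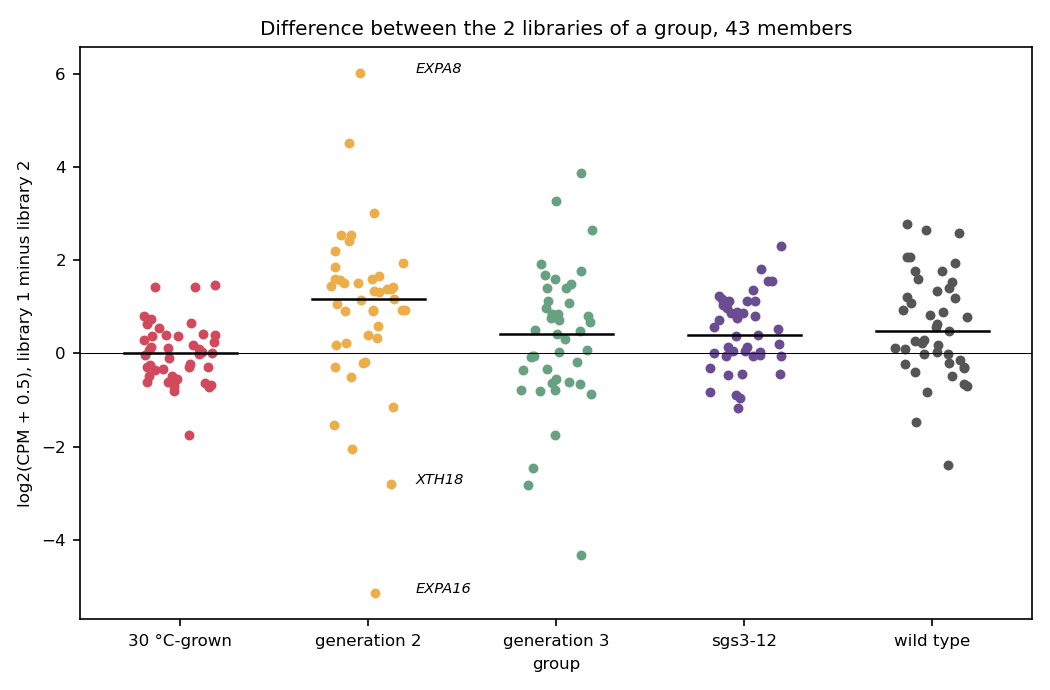
Difference between library 1 and library 2 of each group (y axis, log2(CPM + 0.5)) for each of the 43 members, with 1 point per gene and the group median as a bar. The 30 °C-grown pair is the tightest, with no member that had counts in both libraries over 3.49-fold apart (EXPB3), and generation 2 the widest, with EXPA8 (768 and 11.4 CPM) and EXPA16 (1.68 and 76.5 CPM) at opposite ends.

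Other genes of the same wall pathway were followed by lists. Of 18 genes that make or trim xyloglucan, 0 reached an unadjusted edgeR p under 0.05 in the higher direction in each of the 4 comparisons with wild type. In that direction 4.36% to 7.16% of all genes reached it. In the lower direction 1 did in 30 °C-grown plants (5.56%, against 2.98% of all genes), 2 in generation 2 (11.1% against 4.48%), 2 in generation 3 (11.1% against 4.22%) and 3 in sgs3-12 (16.7% against 4.93%). In the same order, both libraries lay below both of wild type for 7, 6, 3 and 7 genes (38.9%, 33.3%, 16.7% and 38.9%, against 25.2%, 17.2%, 22.2% and 24.6% of all genes). They lay above for 0, 1, 3 and 2 (26.3%, 16.8%, 21.1% and 27% of all genes). Those with a p under 0.05 were XYL1 and BGAL10, which remove xylose and galactose from xyloglucan side chains, and in sgs3-12 also CSLC4, the main synthase of the glucan backbone. XYL1 (AT1G68560) was at 359 and 357 CPM in 30 °C-grown plants, 108 and 114 CPM in generation 2, 187 and 188 CPM in generation 3, 180.4 and 128 CPM in sgs3-12, and 439 and 596 CPM in wild type. All 8 libraries lay below wild type, with log2 fold changes of −0.53 ± 0.34 in 30 °C-grown plants (DESeq2 adjusted p = 0.664), −2.22 ± 0.36 in generation 2 (DESeq2 adjusted p = 8.75e-08), −1.46 ± 0.35 in generation 3 (DESeq2 adjusted p = 0.00430) and −1.75 ± 0.35 in sgs3-12 (DESeq2 adjusted p = 7.47e-05). edgeR adjusted p for XYL1 ran from 0.303 to 0.773. BGAL10 (AT5G63810) was at 12.2 and 10.3 CPM in 30 °C-grown plants, 7.07 and 2.72 CPM in generation 2, 13.1 and 2.24 CPM in generation 3, 5.12 and 2.27 CPM in sgs3-12, and 28.1 and 121 CPM in wild type, again with all 8 libraries below wild type. Its log2 fold change ran from −2.73 ± 0.97 in 30 °C-grown plants to −4.33 ± 1.05 in sgs3-12, and DESeq2 called it in generation 2, generation 3 and sgs3-12.

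Of 9 genes of primary wall cellulose synthesis, 0 reached an unadjusted edgeR p under 0.05 in any of the 6 comparisons, where 6.88% to 11.6% of all genes did, and DESeq2 called 0, with medians from −0.52 in generation 2 to −0.17 in sgs3-12 against wild type. Of 11 genes of brassinosteroid growth signalling, a hormone pathway that many XTH and expansin genes respond to, 1 did, the transcription factor BZR1 in generation 2 (7.16% of all genes in the higher direction there), at 31.5 and 28.1 CPM in generation 2, against 17.5 and 20.3 CPM in wild type (0.66 ± 0.29, edgeR adjusted p = 0.429). CPD, an enzyme of brassinosteroid synthesis, was at 187 and 125 CPM in 30 °C-grown plants, 406 and 59.9 CPM in generation 2, 280 and 110.0 CPM in generation 3, 73.7 and 58.6 CPM in sgs3-12, and 185 and 224 CPM in wild type. In both progeny generations CPD was the higher in library 1, as EXPA8 was. In sgs3-12 it lay below wild type, as EXPA8 did, but in 30 °C-grown plants it overlapped wild type while EXPA8 lay below. Of the 11 genes, 6 lay below both wild-type libraries in sgs3-12 (54.5%, against 24.6% of all genes) and 2 above (18.2%, against 27%). BES1 was among those above, and it was the higher in library 2 of both progeny generations. Whether CPD and EXPA8 vary together was not tested.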

How the data were processed

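Per the labels, the molecule was polyA RNA, from total RNA made into standard Illumina libraries. The submitters' processing notes name HISAT2 2.0.4, StringTie 1.3.0 and the build TAIR10. The sources used here do not name the counting program or its handling of strand and of shared reads. The deposited table holds whole-number counts per gene in 10 columns, per the file headers. It also holds FPKM values that the authors computed, per the file headers. In 8 used columns, deposited FPKM equals the count divided by the column total and a gene length that came out as a whole number of bases for 100.0% of values with 20 or more counts (tolerance 0.001). The 2 FPKM columns of 30 °C-grown plants carry the same header and were not used; their FPKM was computed from their counts and that length.

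The quasi-likelihood test of edgeR 4.0.16, run in R 4.3.3, was applied to the counts of the 10 libraries together, with a mean per group, TMM scaling, the filterByExpr filter and Benjamini-Hochberg adjustment over 19768 genes at 0.05. The common biological coefficient of variation was 0.472. Printed CPM are TMM-scaled. Errors of fold changes are standard errors derived from this fit of the 10 libraries, as the log2 fold change divided by the square root of the F statistic. They are therefore not independent of the p-values. Floors, which stand for 3 counts over a group, cover counting error only. DESeq2 1.42.0, limma 3.58.1 on log2(FPKM + 1) and log2(FPKM + 0.1), other scaling, filters and member rules, a length offset, a replicate block and leaving out libraries were alternatives. The scripts were tested on simulated data. The libraries of a group were compared and none was a copy of another.

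The members, the lists and the tests were chosen with earlier results of these data known. Values were given for the 10 members of highest mean FPKM, for up to 5 members per direction and comparison with the smallest edgeR p among those with an unadjusted p under 0.05 and groups that do not overlap, and for the EXPB, EXLA and EXLB genes. Gene spans are those of the table. Sequences were read from RefSeq's TAIR10.1, where all 43 members overlap the gene of the same identifier. An upstream sequence of 1 further gene is not reported here.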

Additional observations from a re-analysis of the deposited data

Results flagged for a closer look

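For 6 members, both libraries of 1 group lay above both wild-type libraries and both of another group below them. The share of all genes with such opposite sides was not computed. In a single comparison with wild type, 16.8% to 27% of all genes lay above and 17.2% to 25.2% below. The differences between the 2 groups were not tested, except where a value is given, and all share the same wild-type libraries. EXLA1 and EXLA3 stood above wild type in generation 2, at log2 fold changes of 1.29 and 1.35, and below it in sgs3-12, where EXLA1 was at −2.80 and EXLA3 had 0 counts. EXPA20 showed the same pair of sides, at 0.52 in generation 2 and −0.54 in sgs3-12, with a level of at most 1.85 CPM in generation 2. EXPA3 lay above wild type in 30 °C-grown plants, at 0.49, and below it in generation 3, at −0.12, and in sgs3-12, at −0.89. In generation 3 it was only just below, at 26.9 and 30.8 CPM against 31.7 and 31.0 CPM in wild type. Its difference between generation 3 and 30 °C-grown plants was tested and was −0.61 on the log2 scale (edgeR adjusted p = 0.888). EXPA9 lay above wild type in generation 3, at 0.24, and below it in sgs3-12, at −0.59. EXPA16 lay above wild type in sgs3-12, at 1.61, and below it in 30 °C-grown plants, at −2.93.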

How the results depend on the processing

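The single members were chosen by unadjusted p and by groups that do not overlap (up to 5 per comparison and direction). Under the alternatives, 567 of their values kept their direction and side of the threshold, 21 kept their direction and passed the threshold, and 0 reversed. Because the choice required groups that were apart, leaving out 1 library could hardly reverse a direction. Some of the 567 also come from fits that left out a library of another group. This tally is therefore no measure of robustness. Some members outside that choice did turn. EXPA11 was at 0.42 in generation 2 against wild type but at −3.25 without library 1 of generation 2, and at 0.52 but −3.15 against 30 °C-grown plants. Without library 1 of generations 2 and 3, EXPA8 in generation 2 was at −4.62 in place of 0.44 against wild type and at −4.29 in place of 0.77 against 30 °C-grown plants. Members called numbered 0 in each comparison with the edgeR fit of all libraries. With DESeq2 they were 3 in 30 °C-grown plants, 2 in generation 2 and 2 in sgs3-12 against wild type, and 3 in generation 2 and 2 in generation 3 against 30 °C-grown plants. Without library 1 of generations 2 and 3 they were 7 in generation 2 and 3 in sgs3-12 against wild type and 4 in generation 2 against 30 °C-grown plants. Leaving out 1 library at a time gave 0 to 4 calls in generation 2 against wild type and 0 to 2 against 30 °C-grown plants, in both cases with the highest count without library 1 of generation 2, and 0 in the other comparisons. These fits assume that the lone library varies like those of other groups.

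The member median of 30 °C-grown plants against wild type was −0.35 with a length offset and 0.13 and 0.19 by limma with a pseudocount of 1 and 0.1. That of generation 3 against 30 °C-grown plants was −0.35 by limma with 0.1. The cause was not tested. Leaving out 1 library at a time, the medians ran from −0.17 to 0.61 in 30 °C-grown plants, 0.005 to 1.43 in generation 2, −0.064 to 0.78 in generation 3 and −0.44 to 0.39 in sgs3-12 against wild type. They ran from −0.21 to 0.75 in generation 2 and −0.18 to 0.32 in generation 3 against 30 °C-grown plants. The highest of the values against wild type came without wild-type library 1 in each of the 4 comparisons.

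With a replicate block the median of 30 °C-grown plants against wild type was 0.089, and no other median or count of calls moved past its limit. For a median, the limit was the standard deviation of the member medians of the single libraries of the first group. It is therefore wide where those libraries differ, and staying within it is no measure of robustness. A count had moved if it differed from that without the block. Libraries with the same number did not deviate together in every pair of groups (r from −0.27 to 0.45), so the numbers were not taken to pair the libraries. The highest r was that of generations 2 and 3 (0.452), ahead of wild type and sgs3-12 (0.311). Generations 2 and 3 are also the groups whose first libraries differed from the others by gene length. Whether these first libraries share an effect was not tested. Depth was lowest for EXLA3, EXPA20, XTH11, XTH15, XTH29 and XTH33, which had under 50 counts in each library.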
